A study of Homo sapiens with 12 samples.

Results

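The genes examined here are 38 components and feedback targets of the NF-kB pathway, followed in U2OS-ERα cells, a human osteosarcoma line that carries estrogen receptor α. They were chosen by symbol: a gene entered when a probe set was annotated with its symbol alone, and the TNF probe set was taken as the one with the highest mean where 3 carried the symbol. Such a probe set was found for 35 of the 38 genes, among 18417 genes measured in that way. TRAF2, BIRC3 and CSF2 were not analysed here. The list of genes was chosen with earlier results of these data known. RNA was measured on 12 Affymetrix arrays, 3 biological replicates, as labelled, in each of 4 groups. The groups were cells given siRNA against SRC-1 (NCOA1) and 17-B-estradiol, cells given that siRNA and ethanol vehicle, cells given non-targeting control siRNA and 17-B-estradiol, and cells given non-targeting control siRNA and ethanol vehicle. All were transfected with 50 nM siRNA, kept in charcoal-stripped serum and treated for 3 h. All groups therefore share the receptor-bearing line, the transfection and the stripped serum. The cells are one line, and the p-values below measure the spread among these replicates.

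NF-kB factors are dimers of Rel-family subunits. In resting cells inhibitory IkB proteins hold them in the cytoplasm. Signals from receptors for TNF or interleukins switch on the IkB kinase complex, which marks the inhibitors for destruction, and the freed dimers enter the nucleus. Among the genes they induce are several of their own brakes, such as NFKBIA, TNFAIP3 and TNIP1, so the pathway shuts itself down again. A slower, non-canonical branch runs through the kinase MAP3K14 and the processing of NFKB2, whose product pairs with RELB. SRC-1 is a coactivator of nuclear receptors, and estrogen receptor α is known from other cells to repress as well as to induce genes that NF-kB also controls. The members were grouped into classes, counting those measured. The 11 core genes are Rel subunits and kinases, with the scaffold of the IkB kinase complex, IKBKG, counted among the kinases. The 17 inducible genes are targets that NF-kB itself raises, brakes and cytokines included. The 7 others are receptors, adaptors and constitutive inhibitors.

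The NF-kB consensus motif of 10 bases was looked for on both strands of promoter windows reaching from 250 bases before to 50 bases after an annotated start (RefSeq, GRCh38.p14), and windows of 29 of the 35 members were matched. At least 1 match lay in a window of 14 of these 29 genes (48.3%), against 3619 of 27303 genes of the promoter table (13.25%). The members include genes listed as targets of NF-kB. They also had more windows per gene, 51 for 29 genes against 35114 for 27303, so the 2 shares are not a test. Members with a match include genes that rose, fell or did not pass the test below, so 5 windows are shown. They are those of TNIP1 and BCL3, higher with estradiol, NFKBIZ, lower with estradiol, and NFKB2, lower with SRC-1 siRNA. The last is that of NFKBIA, which was called in no comparison below, though it was in some alternative fits. Where a gene has several windows, the one with most matches is given, 5′ to 3′ on the gene's strand, with the matches in capitals.
TNIP1 (chr5:151080985-151081284, minus strand): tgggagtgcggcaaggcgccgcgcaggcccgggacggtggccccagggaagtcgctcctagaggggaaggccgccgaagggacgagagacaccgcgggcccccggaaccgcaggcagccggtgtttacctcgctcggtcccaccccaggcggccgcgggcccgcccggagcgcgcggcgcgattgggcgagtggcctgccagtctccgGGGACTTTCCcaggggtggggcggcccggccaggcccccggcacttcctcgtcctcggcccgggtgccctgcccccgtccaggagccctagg
BCL3 (chr19:44748458-44748757, plus strand): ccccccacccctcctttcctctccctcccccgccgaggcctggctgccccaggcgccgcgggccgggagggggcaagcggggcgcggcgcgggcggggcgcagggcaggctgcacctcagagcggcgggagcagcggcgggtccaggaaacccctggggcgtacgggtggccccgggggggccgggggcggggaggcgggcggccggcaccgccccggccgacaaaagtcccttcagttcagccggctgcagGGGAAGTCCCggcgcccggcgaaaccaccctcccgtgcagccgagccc
NFKBIZ (chr3:101827740-101828039, plus strand): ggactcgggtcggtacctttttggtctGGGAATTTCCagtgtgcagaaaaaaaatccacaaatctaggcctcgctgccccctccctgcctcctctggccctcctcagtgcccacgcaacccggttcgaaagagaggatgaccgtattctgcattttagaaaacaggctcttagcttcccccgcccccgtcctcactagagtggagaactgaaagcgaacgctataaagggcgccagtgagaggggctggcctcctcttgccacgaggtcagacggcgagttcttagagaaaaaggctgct
NFKB2 (chr10:102394328-102394627, plus strand): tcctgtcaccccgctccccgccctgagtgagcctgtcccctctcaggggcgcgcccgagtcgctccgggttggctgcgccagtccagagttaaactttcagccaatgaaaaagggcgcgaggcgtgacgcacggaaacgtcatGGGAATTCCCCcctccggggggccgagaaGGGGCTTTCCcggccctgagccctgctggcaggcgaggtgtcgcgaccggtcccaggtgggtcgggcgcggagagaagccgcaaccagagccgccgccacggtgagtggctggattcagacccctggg
NFKBIA (chr14:35404700-35404999, minus strand): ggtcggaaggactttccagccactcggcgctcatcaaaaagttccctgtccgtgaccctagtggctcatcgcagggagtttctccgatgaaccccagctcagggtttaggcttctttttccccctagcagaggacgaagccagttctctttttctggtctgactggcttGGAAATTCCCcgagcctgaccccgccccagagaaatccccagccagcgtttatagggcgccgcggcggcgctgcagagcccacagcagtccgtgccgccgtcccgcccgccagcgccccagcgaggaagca
Positions count from the annotated start, with negative numbers before it. The match lay at -42 to -33 in TNIP1, at 3 to 12 in BCL3, at -223 to -214 in NFKBIZ and at -81 to -72 in NFKBIA. The NFKB2 window held 3 matches, of which those at -107 to -98 and -106 to -97 overlap and the other lay at -78 to -69. The full estrogen response element was in a window of 0 of the 29 members and of 20 of the 27303 genes (0.07%). A single arm of that element, GGTCA, was in a window of 13 of the 29 members (44.8%), among them TNIP1, NFKBIZ, IL24 and ICAM1, and of 42.57% of all genes. The AP-1 site, TGANTCA, was in a window of IKBKG, MAP3K8 and NFKBIB (10.3% of the 29 members, and 9.37% of all genes). These are matches of letters in these windows only.

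NCOA1, the siRNA's target, went with the labels. Its transcripts were 4.64-fold lower with SRC-1 siRNA under estradiol and 7.60-fold lower under vehicle (limma adjusted p = 7.92e-06 and 7.30e-07), but NCOA1 was itself 2.00-fold higher with estradiol with SRC-1 siRNA, averaging 6.862 log2 with estradiol and 5.859 with vehicle (limma adjusted p = 0.000289), and averaged 9.077 and 8.785 with non-targeting siRNA (0.275). The part of that rise in the estradiol results with SRC-1 siRNA was not tested. ESR1 averaged between 12.03 and 12.16 log2 in the 4 groups. Of 8 osteoblast lineage markers measured, IBSP lay below the lower quartile of the tested probe sets (5.17 to 5.24 log2) on all 12 arrays and the other 7, RUNX2, SP7, SPARC and COL1A1 among them, on none. SPP1 and ALPL of that list were lower with SRC-1 siRNA, SPP1 by 1.83-fold under estradiol and 1.64-fold under vehicle and ALPL by 1.35-fold and 1.18-fold (limma adjusted p = 8.21e-05, 0.000541, 0.00089 and 0.031), and COL1A2 was 1.16-fold lower with estradiol with SRC-1 siRNA (0.047). Of 5 leukocyte markers PTPRC and LYZ lay below the quartile on all 12 arrays. LYZ was higher with estradiol, by 0.47 log2 with SRC-1 siRNA and 0.89 with non-targeting siRNA (limma adjusted p = 0.000427 and 3.02e-06), and 1.27-fold lower with SRC-1 siRNA under estradiol (0.00953), and 0 of the other 4 were called; the mean over the list ranged from 5.138 to 5.276 with estradiol and 5.132 to 5.246 with vehicle under SRC-1 siRNA, and from 5.292 to 5.363 and 5.088 to 5.193 under non-targeting siRNA. Of 5 endothelial and 5 epithelial markers 0 were called in any comparison, where at most 6.88% of all probe sets were called. Over all arrays the list means ranged from 5.41 to 5.594 log2 for the endothelial and from 8.548 to 8.681 for the epithelial markers. That of the osteoblast lineage markers was lower than the epithelial mean, at 7.929 to 8.218. The part of these markers in the results below was not tested. A set of 4203 probe sets taken as controls was left out of the tests, and their mean deviation moved with estradiol: with SRC-1 siRNA it ranged from 0.094 to 0.178 log2 under estradiol and from -0.159 to -0.024 under vehicle, and with non-targeting siRNA from -0.003 to 0.068 and from -0.123 to -0.039. The fits were therefore repeated with this mean as a covariate, which also widened the errors of the estradiol differences. VCAM1 lay below the lower quartile on 2 arrays and the other 34 members on none. Within groups the members varied little, with a median SD between 0.054 and 0.071 log2; TRAF1 varied most in 3 of the 4 groups, with SDs of up to 0.257.

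With SRC-1 siRNA 6 of the 35 members were higher and 3 lower with estradiol, and with non-targeting siRNA 6 were higher and 2 lower. The colony-stimulating factor gene CSF1, the interleukin gene IL24, the brake TNIP1, the nuclear IkB gene BCL3 and the kinase gene MAP3K14 were higher with either siRNA, and the nuclear IkB gene NFKBIZ and the ubiquitin ligase gene BIRC2 were lower. A member was called where its limma p lay under 0.01 and, after Benjamini-Hochberg adjustment over all 29094 probe sets tested, under 0.05. In this way 25.7% of members were called with SRC-1 siRNA, against 6.88% of all probe sets (4.49% higher and 2.39% lower), and 22.9% with non-targeting siRNA, against 2.73% (1.85% higher and 0.873% lower). Among probe sets with 1 gene symbol, as all members have, the shares were 7.01% and 3.34%. Because the members were chosen with earlier results known, these shares describe the list and do not test it against all probe sets. Higher calls made up 65.3% of all calls with SRC-1 siRNA and 68% with non-targeting siRNA, and 48.3% and 60.5% after quantile normalization of all probe sets, controls included, which was tried after the data were seen. The members' median difference was -0.01 log2 with SRC-1 siRNA and 0.04 with non-targeting siRNA, beside -0.02 and -0.01 for all probe sets. Estradiol and vehicle arrays did not overlap for 19 and 17 of the 35 members, against 25.8% and 21% of all probe sets.

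Of the 5 Rel subunits, the DNA-binding core of the pathway, 0 were called for estradiol with either siRNA. Of all probe sets 6.88% were called with SRC-1 siRNA and 2.73% with non-targeting siRNA, and 5 genes are too few to differ visibly from these shares. RELA, the subunit that carries the main activating domain, read 10.48, 10.47 and 10.46 log2 with estradiol and 10.39, 10.46 and 10.42 with vehicle under SRC-1 siRNA, and 10.47, 10.50 and 10.50 with estradiol and 10.39, 10.45 and 10.43 with vehicle under non-targeting siRNA. Before rounding, every estradiol array lay slightly above every vehicle array, by mean differences of 0.05 and 0.07 log2 (95% intervals -0.03 to 0.13 and -0.02 to 0.15, adjusted p = 0.461 and 0.487). NFKB1, which encodes the precursor of the most common partner of RELA, read 10.00, 10.00 and 10.08 with estradiol and 10.11, 10.09 and 10.23 with vehicle under SRC-1 siRNA, and 9.87, 10.01 and 9.98 and 10.20, 10.11 and 10.10 under non-targeting siRNA. Its differences of -0.12 and -0.18 log2 missed the threshold (adjusted p = 0.228 and 0.141); the second passed it with a trended and robust variance (adjusted p = 0.0377). NFKB2 differed by -0.13 log2 with either siRNA (limma adjusted p = 0.18 and 0.321). For both NFKB1 and NFKB2 every estradiol array lay below every vehicle array with either siRNA. Such separation, in either direction, was seen for 25.8% and 21% of all probe sets. Differences of REL and RELB lay between -0.07 and 0.12 log2.

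Among the 6 genes grouped as kinases, the scaffold IKBKG included, only MAP3K14 passed the test. This single gene is 16.7% of the 6, beside 6.88% of all probe sets with SRC-1 siRNA and 2.73% with non-targeting siRNA. MAP3K14 is the NF-kB-inducing kinase, which starts the non-canonical branch. It read 8.01, 8.12 and 8.10 log2 with estradiol and 7.71, 7.55 and 7.62 with vehicle under SRC-1 siRNA, and 8.05, 8.17 and 8.02 with estradiol and 7.63, 7.66 and 7.59 with vehicle under non-targeting siRNA. All 6 estradiol arrays were thus above all 6 vehicle arrays. The rise was 1.36-fold with SRC-1 siRNA (0.45 ± 0.06 log2, SE, n = 3 per group, limma adjusted p = 0.000707) and 1.37-fold with non-targeting siRNA (0.45 ± 0.06, limma adjusted p = 0.000891). With the control mean as a covariate its differences were 0.35 ± 0.13 and 0.41 ± 0.08 log2, called only with non-targeting siRNA (limma adjusted p = 0.415 and 0.0398). The catalytic subunits of the IkB kinase complex, CHUK and IKBKB, and its scaffold IKBKG differed by 0.01 to 0.11 log2. MAP3K8, a kinase of the MAP kinase cascade that the NFKB1 precursor binds, differed by 0.12 and 0.09 log2. RIPK2, which relays signals of intracellular bacterial sensors, differed by -0.09 and 0.04. IKBKG has a near-identical pseudogene copy, from which its probe set may not be told apart.

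BIRC2 encodes a ubiquitin ligase that, with TRAF adaptors, keeps MAP3K14 protein low and modifies RIPK proteins at TNF receptors. It read 9.94, 9.97 and 9.98 log2 with estradiol and 10.20, 10.23 and 10.19 with vehicle under SRC-1 siRNA, and 10.13, 10.08 and 10.05 with estradiol and 10.30, 10.29 and 10.37 with vehicle under non-targeting siRNA. The estradiol arrays were lower without overlap, by 1.19-fold (-0.25 ± 0.04 log2, SE, limma adjusted p = 0.00459) and 1.18-fold (-0.24 ± 0.04, limma adjusted p = 0.00874). The second call was lost in a fit of the compared arrays alone (adjusted p = 0.0708), and both with the covariate, at -0.21 ± 0.09 and -0.22 ± 0.06 log2 (limma adjusted p = 0.519 and 0.14). TRAF3, its adaptor partner, differed by -0.04 log2 with either siRNA.

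The TNF receptors gave calls with 1 siRNA each. TNFRSF1A, the broadly expressed TNF receptor, read 10.36, 10.37 and 10.35 log2 with estradiol and 10.28, 10.27 and 10.17 with vehicle under SRC-1 siRNA, and 10.43, 10.48 and 10.45 with estradiol and 10.28, 10.27 and 10.18 with vehicle under non-targeting siRNA. The groups did not overlap with either siRNA, and the difference was called with non-targeting siRNA (0.21 ± 0.05 log2, SE, limma adjusted p = 0.0322) and not with SRC-1 siRNA (0.12 ± 0.05, limma adjusted p = 0.132). That call held in 4 of the 12 leave-one-array-out fits: leaving out any of the 6 non-targeting arrays, or estradiol replicate 1 or 3 with SRC-1 siRNA, ended it, with adjusted p between 0.0505 and 0.134. It was also lost in a fit of the compared arrays alone (0.106) and with the covariate, where the difference was 0.21 ± 0.06 log2 (0.23). TNFRSF1B, a receptor mainly of immune and endothelial cells, read 6.21, 6.37 and 6.25 with estradiol and 6.47, 6.67 and 6.69 with vehicle under SRC-1 siRNA, and 6.25, 6.48 and 6.24 and 6.28, 6.42 and 6.45 under non-targeting siRNA. Vehicle arrays with SRC-1 siRNA were the highest of the 4 groups on average, and the estradiol difference there was -0.33 ± 0.08 log2 (SE, limma adjusted p = 0.038), beside -0.06 ± 0.08 with non-targeting siRNA (limma adjusted p = 0.826). It was no longer called with SRC-1 siRNA without estradiol replicate 1 or 3 or vehicle replicate 2 or 3 (adjusted p 0.105 to 0.139), or without vehicle replicate 2 with non-targeting siRNA (0.0513). With the covariate it was -0.05 ± 0.17 log2.

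The nuclear IkB genes BCL3 and NFKBIZ were called in opposite directions. BCL3, a nuclear IkB protein that binds homodimers of the NFKB1 and NFKB2 products, read 8.88, 8.80 and 8.74 log2 with estradiol and 8.44, 8.42 and 8.53 with vehicle under SRC-1 siRNA, and 9.00, 8.88 and 8.87 with estradiol and 8.39, 8.55 and 8.41 with vehicle under non-targeting siRNA. It rose 1.27-fold (0.34 ± 0.06 log2, SE, limma adjusted p = 0.00622) and 1.38-fold (0.47 ± 0.06, limma adjusted p = 0.0011). NFKBIZ, a nuclear IkB protein needed for later NF-kB targets such as IL6, moved the other way. It read 7.81, 7.77 and 7.70 with estradiol and 8.31, 8.16 and 8.22 with vehicle under SRC-1 siRNA, and 7.61, 7.75 and 7.58 with estradiol and 8.03, 8.09 and 8.09 with vehicle under non-targeting siRNA. All 6 estradiol arrays lay below all 6 vehicle arrays, by 1.39-fold (-0.47 ± 0.06 log2, SE, limma adjusted p = 0.000539) and 1.34-fold (-0.42 ± 0.06, limma adjusted p = 0.00153). With the covariate both genes kept their signs, BCL3 at 0.51 ± 0.13 and 0.55 ± 0.08 log2 and NFKBIZ at -0.51 ± 0.13 and -0.44 ± 0.08, and were called only with non-targeting siRNA (limma adjusted p = 0.213 and 0.00853, and 0.224 and 0.0324).

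NFKBIA, the classical inhibitor and the best known feedback target, read 10.59, 10.57 and 10.48 log2 with estradiol and 10.41, 10.32 and 10.30 with vehicle under SRC-1 siRNA, and 10.49, 10.61 and 10.44 with estradiol and 10.39, 10.38 and 10.29 with vehicle under non-targeting siRNA. Estradiol arrays were above vehicle arrays without overlap, and the differences of 0.20 ± 0.06 and 0.16 ± 0.06 log2 (SE) missed the threshold (limma adjusted p = 0.0575 and 0.213), as they did with the covariate, at 0.21 ± 0.13 and 0.17 ± 0.08 log2 (0.663 and 0.477). With SRC-1 siRNA NFKBIA was called in 4 of 10 alternative settings, with adjusted p between 0.0125 and 0.0497, and in the fits without estradiol replicate 2 with non-targeting siRNA (0.0495) or vehicle replicate 1 with SRC-1 siRNA (0.0423). The other IkB genes NFKBIE and NFKBIB differed by -0.09 to 0.10 log2.

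Of the brakes, TNIP1 rose and TNFAIP3 was not called. TNIP1 encodes a ubiquitin-binding protein that brings the deubiquitinase TNFAIP3 to its substrates. It read 9.01, 9.10 and 8.91 log2 with estradiol and 8.61, 8.62 and 8.62 with vehicle under SRC-1 siRNA, and 9.16, 9.32 and 9.19 with estradiol and 8.72, 8.78 and 8.70 with vehicle under non-targeting siRNA. Every estradiol array was above every vehicle array, by 1.31-fold (0.39 ± 0.06 log2, SE, limma adjusted p = 0.00208) and 1.41-fold (0.49 ± 0.06, limma adjusted p = 0.000525). With the covariate its differences were 0.52 ± 0.13 and 0.55 ± 0.08 log2, called only with non-targeting siRNA (limma adjusted p = 0.188 and 0.00632). TNFAIP3 differed by -0.03 and 0.06 log2, with 95% intervals -0.19 to 0.13 and -0.09 to 0.22. TNIP2, a relative of TNIP1, and CYLD, another deubiquitinase of the pathway, differed by -0.10 to 0.02 log2.

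The cytokine gene CSF1, which encodes the macrophage growth factor, had the largest estradiol difference of the 35 members. It read 10.00, 9.90 and 9.93 log2 with estradiol and 9.00, 8.92 and 8.84 with vehicle under SRC-1 siRNA, and 9.76, 9.87 and 9.66 with estradiol and 8.98, 8.92 and 8.83 with vehicle under non-targeting siRNA. The estradiol arrays were 2.03-fold higher with SRC-1 siRNA (1.02 ± 0.07 log2, SE, limma adjusted p = 3.83e-06) and 1.80-fold higher with non-targeting siRNA (0.85 ± 0.07, limma adjusted p = 2.01e-05). Both calls held with the covariate, at 0.97 ± 0.15 and 0.82 ± 0.09 log2 (limma adjusted p = 0.0309 and 0.00164). IL24, a cytokine of the interleukin-10 family, read 11.16, 11.17 and 11.03 with estradiol and 10.55, 10.52 and 10.77 with vehicle under SRC-1 siRNA, and 11.54, 11.65 and 11.66 with estradiol and 11.22, 11.16 and 11.20 with vehicle under non-targeting siRNA. It rose 1.42-fold and 1.34-fold with estradiol (0.51 ± 0.07 and 0.42 ± 0.07 log2, SE, limma adjusted p = 0.00114 and 0.00536); with the covariate the differences were 0.45 ± 0.16 and 0.40 ± 0.10 and neither was called (limma adjusted p = 0.397 and 0.112). TNF itself differed by -0.09 and -0.12 log2 and CSF3, the granulocyte growth factor, by -0.18 and -0.13, and neither was called. The 3 TNF probe sets gave the same value on each of the 12 arrays, so they count as 1 measurement.

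ICAM1, an adhesion molecule that binds leukocyte integrins, read 8.68, 8.69 and 8.58 log2 with estradiol and 8.40, 8.41 and 8.51 with vehicle under SRC-1 siRNA, and 9.10, 9.25 and 9.12 with estradiol and 8.98, 8.94 and 8.91 with vehicle under non-targeting siRNA. The estradiol differences were of like size, 0.21 ± 0.05 and 0.21 ± 0.05 log2 (SE), on either side of the threshold (limma adjusted p = 0.0413 and 0.08). The call with SRC-1 siRNA held in 4 of the 12 leave-one-array-out fits and was lost without any of the 3 vehicle arrays or estradiol replicate 3 with non-targeting siRNA, and without replicate 1 or 2 of either treatment with SRC-1 siRNA (adjusted p 0.0532 to 0.142). The replicate number as a block ended it too (0.0527), as did the compared arrays alone (0.108), renewed quantile normalization (0.0816), array weights (0.0709) and the covariate, with 0.25 ± 0.13 log2 (0.578). With non-targeting siRNA ICAM1 was called when the lowest 40% of probe sets were left out (0.0318) and with a trended and robust variance (0.0295). Of the other inducible targets, TNFAIP8 differed by -0.27 and -0.04 log2, SOD2, the mitochondrial superoxide dismutase, by -0.18 and -0.14, TNFAIP2 by 0.06 and 0.20, VCAM1 by -0.17 and 0.02 and the transcription factor gene IRF1 by -0.01 and 0.04, with SRC-1 and non-targeting siRNA in that order. TRAF1, an inducible adaptor, differed by 0.11 and 0.24 log2 with wide intervals (-0.21 to 0.42 and -0.07 to 0.56). None of these 6 genes was called; TNFAIP8 passed the threshold with SRC-1 siRNA when the lowest 40% of probe sets were left out (adjusted p = 0.034) and without vehicle replicate 1 (0.0391) or 3 (0.0357) with non-targeting siRNA.

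**Figure D1:**
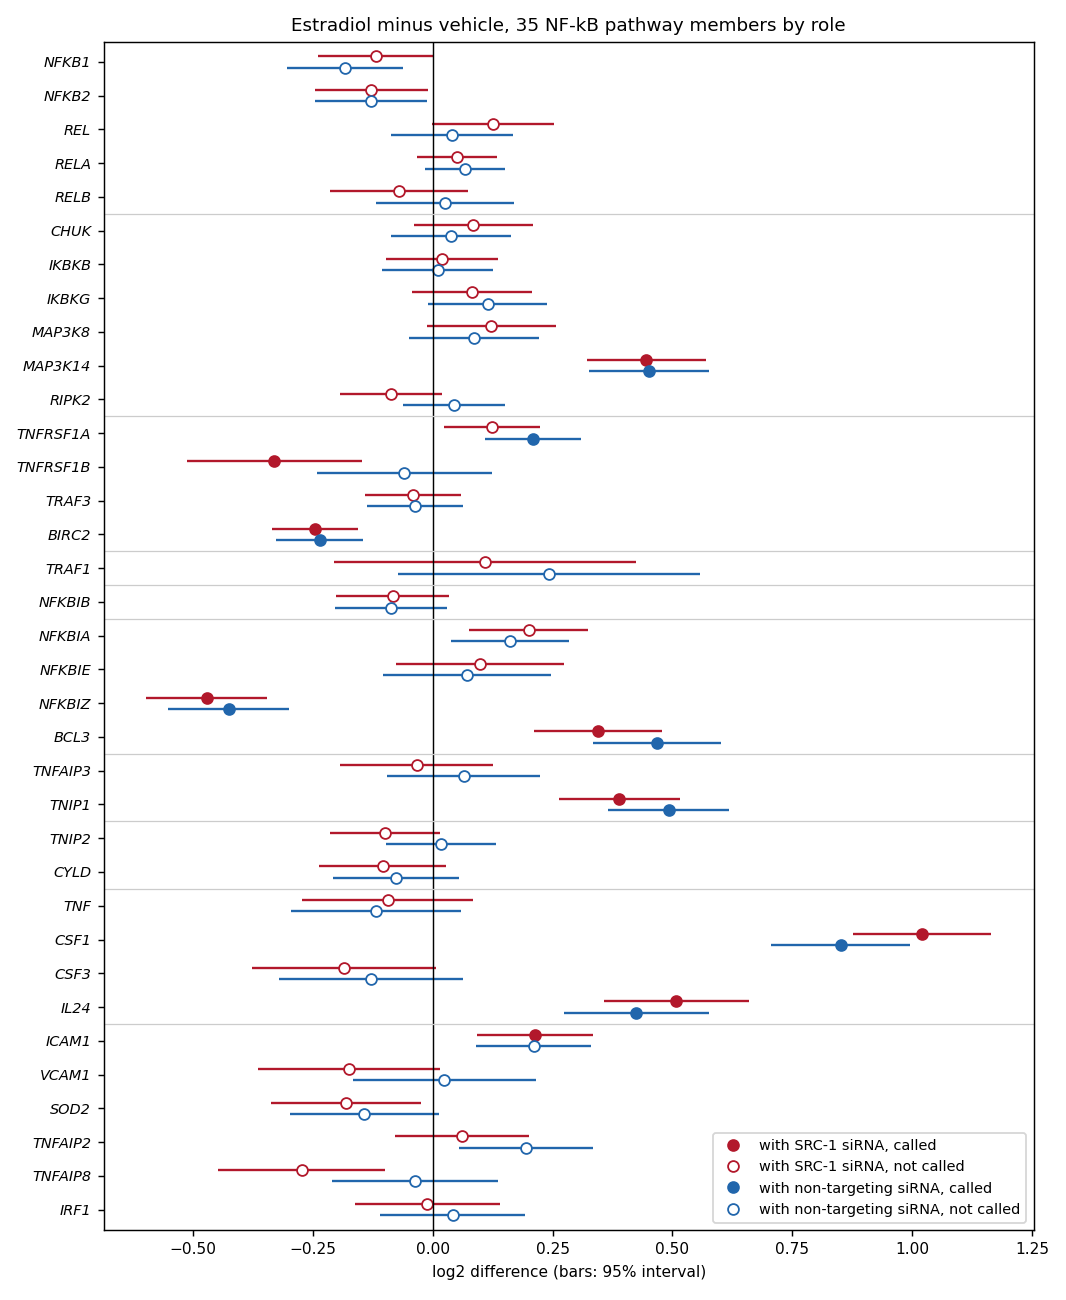
Estradiol minus vehicle for the 35 members in log2 units (horizontal axis), 1 row per gene and grey lines between roles. Red points are cells with SRC-1 siRNA and blue points cells with non-targeting siRNA, bars are 95% intervals and filled points were called. CSF1 lies farthest to the right at 1.02 and 0.85, NFKBIZ farthest to the left at -0.47 and -0.42, and the 5 Rel subunits at the top have open points only.

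With SRC-1 siRNA the members called were NFKB2, ICAM1 and IL24, lower under either treatment, and RELB, lower under estradiol. Under estradiol 4 of the 35 were lower (11.4%, against 1.8% of all probe sets called and 1.07% called lower) and 0 higher, and under vehicle 3 were lower (8.57%, against 1.21% and 0.945%) and 0 higher. The shares called higher over all probe sets were 0.732% and 0.265%. The members' medians were -0.09 log2 under estradiol and -0.01 under vehicle, against -0.01 and 0.00 for all probe sets. Groups did not overlap for 14 and 15 members, against 22.3% and 18.4% of all probe sets.

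NFKB2, the precursor of the non-canonical DNA-binding subunit, read 8.63, 8.63 and 8.49 log2 with SRC-1 siRNA and 8.91, 8.95 and 8.86 with non-targeting siRNA under estradiol, and 8.75, 8.65 and 8.73 with SRC-1 siRNA and 9.01, 9.00 and 9.09 with non-targeting siRNA under vehicle. All 6 arrays with SRC-1 siRNA were below all 6 with non-targeting siRNA, by 1.25-fold under estradiol (-0.32 ± 0.05 log2, SE, limma adjusted p = 0.0119) and 1.25-fold under vehicle (-0.32 ± 0.05, limma adjusted p = 0.0141). The estradiol call was lost without estradiol replicate 2 with non-targeting siRNA (0.0631). The vehicle call was lost without vehicle replicate 1 (0.0506) or 3 (0.0693) with non-targeting siRNA or vehicle replicate 2 with SRC-1 siRNA (0.0628). Fitted on the compared arrays alone, NFKB2 had an adjusted p of 0.072 and 0.0873, and with the covariate the difference was -0.32 under both treatments and called only under vehicle (limma adjusted p = 0.132 and 0.0227).

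RELB, the partner of the processed NFKB2 product, read 8.07, 8.22 and 7.95 log2 with SRC-1 siRNA and 8.34, 8.46 and 8.38 with non-targeting siRNA under estradiol, and 8.11, 8.16 and 8.19 with SRC-1 siRNA and 8.35, 8.43 and 8.32 with non-targeting siRNA under vehicle. Again every array with SRC-1 siRNA was lower, with differences of -0.31 ± 0.07 log2 under estradiol (SE, limma adjusted p = 0.0393) and -0.22 ± 0.07 under vehicle, where it was not called (limma adjusted p = 0.17). The estradiol call held in 2 of the 12 leave-one-array-out fits, those without estradiol replicate 2 or vehicle replicate 1 with SRC-1 siRNA. Without any other array it was lost (adjusted p 0.0506 to 0.14), as it was in a fit of the compared arrays alone (0.149) and with the covariate (-0.22 ± 0.08 log2, limma adjusted p = 0.385). RELA, NFKB1 and REL, the canonical subunits, differed by -0.02 to 0.08 log2 between the siRNAs, with RELA intervals of -0.10 to 0.06 under estradiol and -0.08 to 0.08 under vehicle.

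ICAM1 had the largest SRC-1 siRNA difference under estradiol and IL24 under vehicle. ICAM1, whose values are given above, was 1.42-fold lower with SRC-1 siRNA under estradiol (-0.50 ± 0.05 log2, SE, limma adjusted p = 0.00106) and 1.42-fold lower under vehicle (-0.51 ± 0.05, limma adjusted p = 0.00117). Its 6 arrays with SRC-1 siRNA lay between 8.40 and 8.69 log2 and its 6 with non-targeting siRNA between 8.91 and 9.25. IL24 was 1.41-fold lower under estradiol (-0.50 ± 0.07 log2, SE, limma adjusted p = 0.00448) and 1.49-fold lower under vehicle (-0.58 ± 0.07, limma adjusted p = 0.00197). Its arrays with SRC-1 siRNA and estradiol, at 11.03 to 11.17 log2, overlapped in range with the non-targeting vehicle arrays at 11.16 to 11.22. The calls of both genes under either treatment held in all 12 leave-one-array-out fits. With the covariate ICAM1 was called under both treatments, and IL24 under vehicle but not under estradiol (limma adjusted p = 0.06). NFKBIA differed by 0.03 and -0.01 log2, TNFAIP3 by -0.06 and 0.04 and TNF by 0.01 and -0.01, under estradiol and vehicle in that order. Other uncalled members lay further from 0, such as SOD2 at -0.22 and -0.19 and NFKBIE at -0.20 and -0.23. Uncalled members ranged from -0.26 to 0.18 log2 under estradiol and from -0.23 to 0.23 under vehicle. Of all 35 members, 9 and 13 had differences above 0. RIPK2 under vehicle (0.19 log2) and TNIP1 under estradiol (-0.22) were not called (limma adjusted p = 0.0983 and 0.0899); both passed the threshold when the lowest 40% of probe sets were left out (0.0349 and 0.0373) and with a trended and robust variance (0.0146 and 0.0288).

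**Figure D2:**
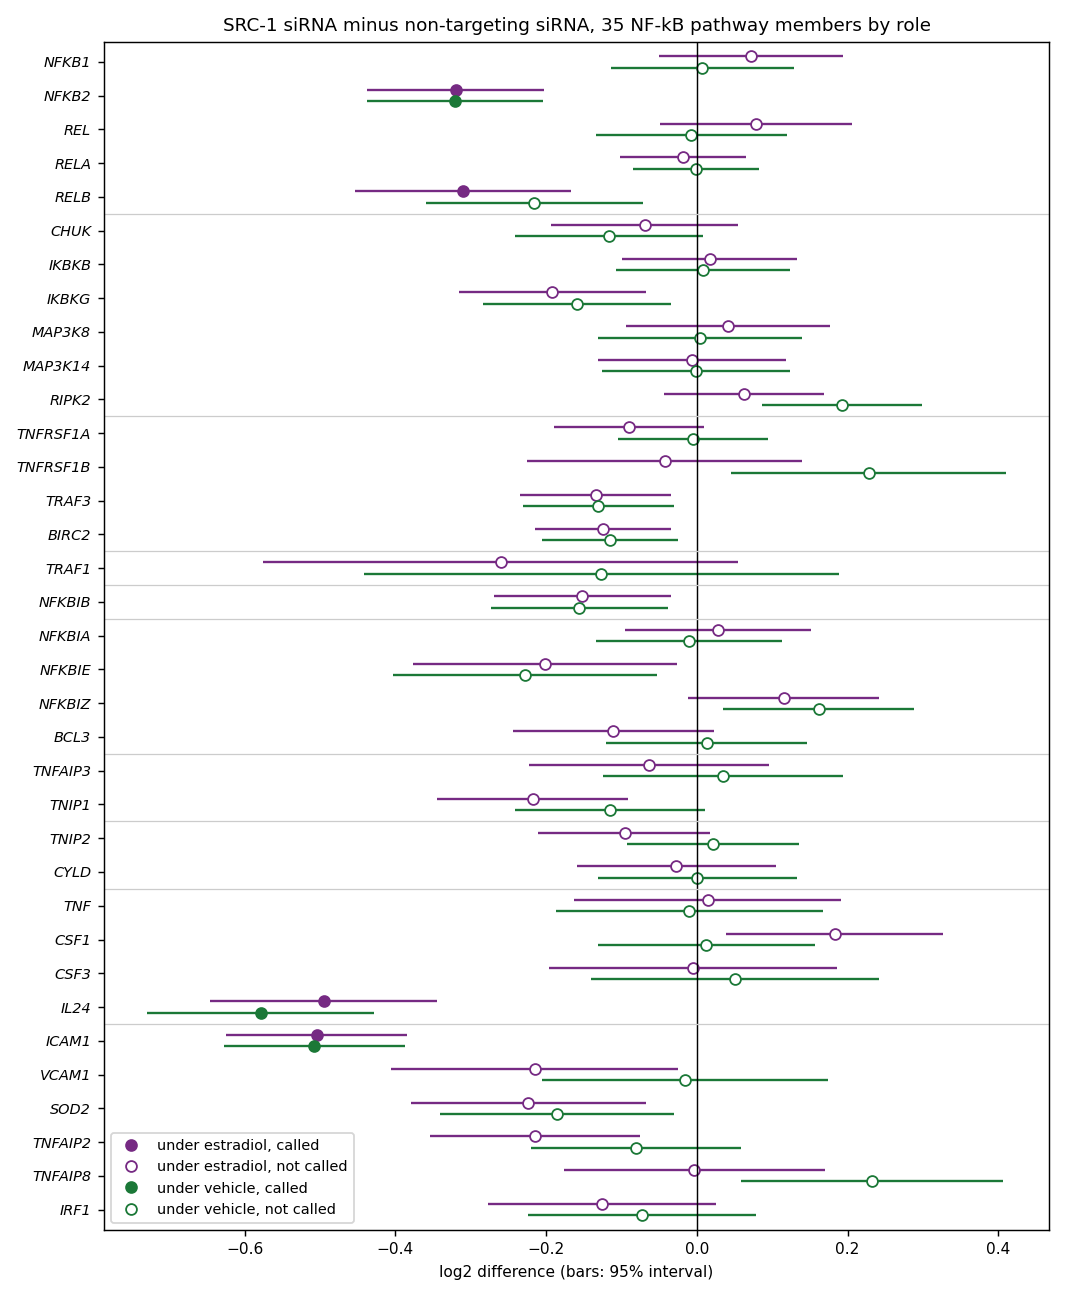
SRC-1 siRNA minus non-targeting siRNA for the 35 members in log2 units (horizontal axis), 1 row per gene and grey lines between roles. Purple points are estradiol-treated and green points vehicle-treated cells, bars are 95% intervals and filled points were called. ICAM1 and IL24 lie between -0.50 and -0.58, NFKB2 at -0.32 under both treatments, and 0 filled points lie to the right of 0.

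**Figure D3:**
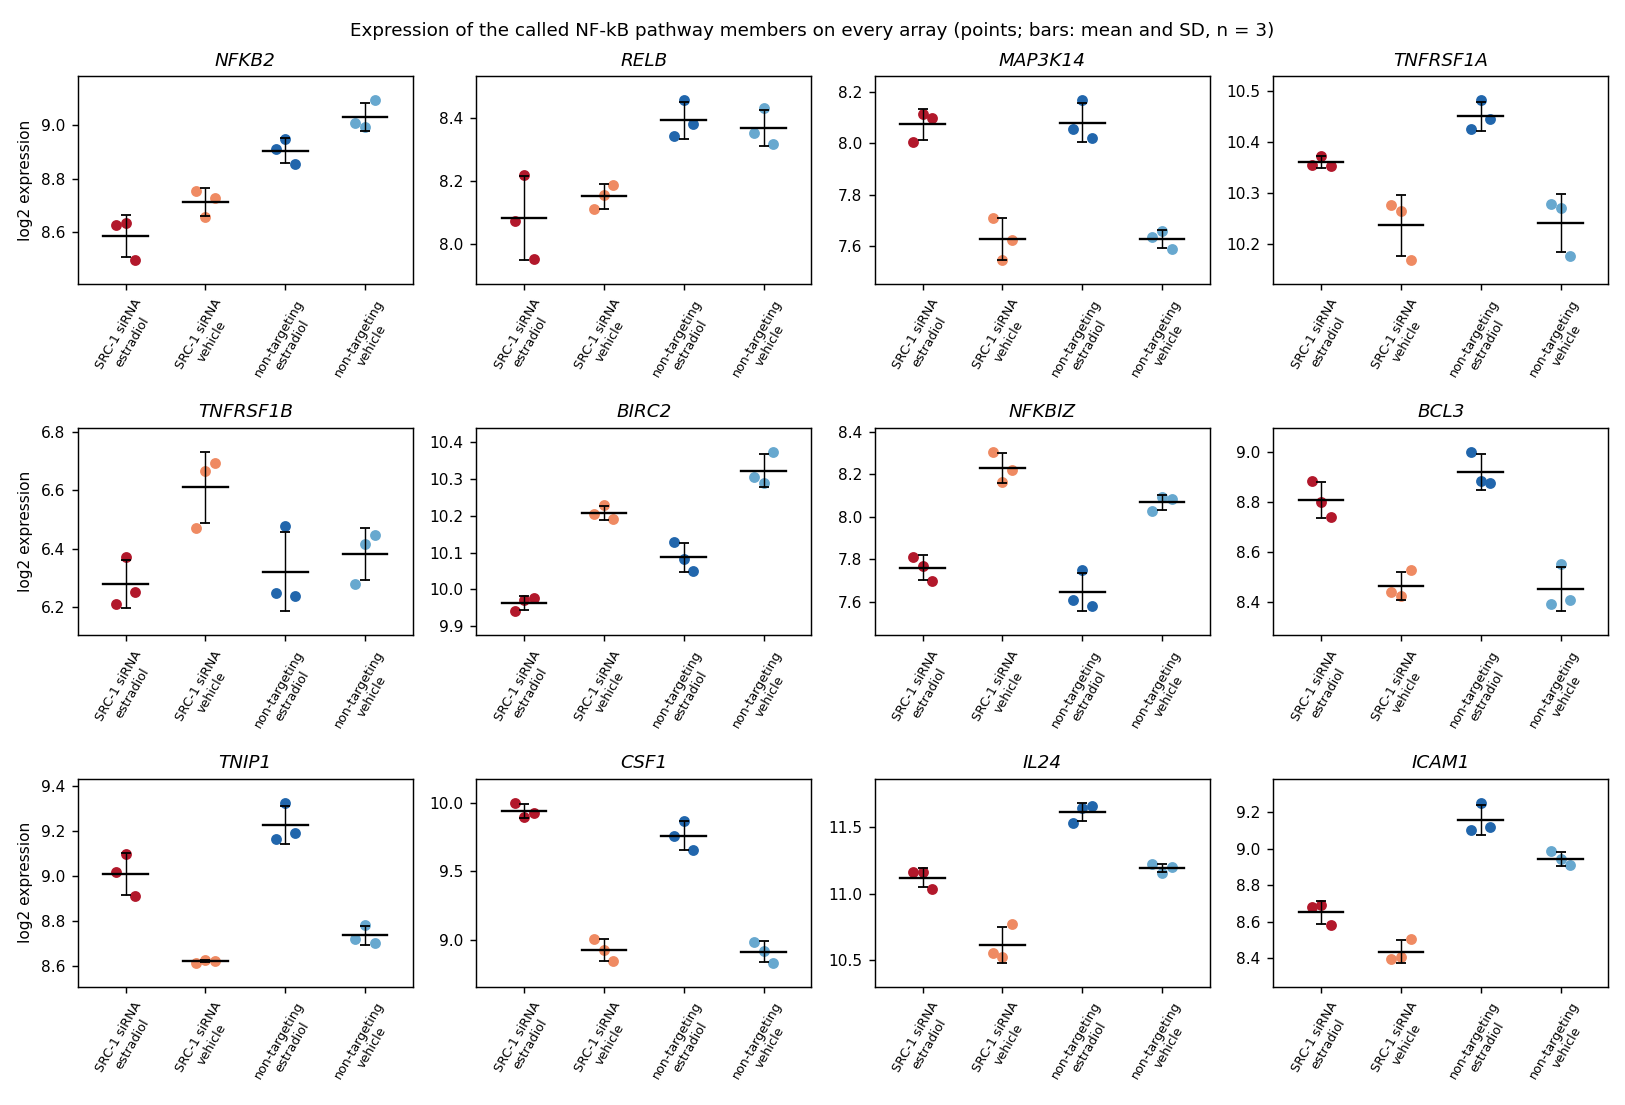
Deposited log2 expression (vertical axes, each on its own range) of the 12 members called in at least 1 comparison, on each of the 12 arrays by group. Points are arrays, horizontal bars means and error bars SDs (n = 3). CSF1, MAP3K14 and BCL3 do not overlap between treatments with either siRNA, and RELB does not between siRNAs under either treatment. IL24, ICAM1, NFKB2, TNIP1 and BIRC2 do not overlap in any of these comparisons, though not all of these differences were called.

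Of the 10 members called for estradiol with at least 1 siRNA and the 4 called for SRC-1 siRNA under at least 1 treatment, IL24 and ICAM1 belong to both, and 23 of the 35 members were called in no comparison. For both genes SRC-1 siRNA went with lower and estradiol with higher levels. Estradiol calls were shared by 7 members (77.8% of the 9 called with SRC-1 siRNA and 87.5% of the 8 called with non-targeting siRNA), with 0 of opposite sign; over all probe sets the 625 shared calls were 31.2% and 78.8%. These comparisons use different arrays, though the fit pools their spread. SRC-1 siRNA calls were shared by 3 members (75% of the 4 called under estradiol and 100% of the 3 called under vehicle), against 212 of all probe sets (40.5% and 60.2%).

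Whether a member's response to estradiol differed between the siRNAs was tested with the interaction term, the effect with SRC-1 siRNA minus that with non-targeting siRNA. Of the 35 members 0 were called by limma, as were 0 of all 29094 probe sets (0%), with 1 member and 2102 probe sets at an unadjusted p under 0.05. That member was TNFRSF1B, at -0.27 log2 (95% interval -0.53 to -0.01, adjusted p = 0.682). The half-width of the members' intervals ranged from 0.118 log2 for RELA to 0.446 for TRAF1, with a median of 0.18. With the covariate 0 members were called as well. CSF1 differed by 0.17 (-0.03 to 0.37), IL24 by 0.08 (-0.13 to 0.30), TNIP1 by -0.10 (-0.28 to 0.08) and BCL3 by -0.12 (-0.31 to 0.06). Those of MAP3K14, BIRC2, NFKBIZ and ICAM1 lay closest to 0 among the members called for estradiol, at -0.01 (-0.18 to 0.17), -0.01 (-0.14 to 0.12), -0.05 (-0.23 to 0.13) and 0.0029 (-0.17 to 0.17). For MAP3K14 both bounds of that interval were smaller in size than its estradiol effects of 0.45 log2. The same held for CSF1, IL24, TNIP1, BCL3, BIRC2, NFKBIZ and ICAM1 beside their own estradiol effects, but not for TNFRSF1A and TNFRSF1B.

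By class, the calls for estradiol were 1 core gene, MAP3K14, and otherwise inducible or other genes, while those for SRC-1 siRNA included 2 Rel subunits; a difference between classes was not tested. For estradiol 1 of 11 core and 6 of 17 inducible members were called with SRC-1 siRNA, and 1 of 11 and 5 of 17 with non-targeting siRNA. These are 9.09% of core and 35.3% of inducible members beside 6.88% of all probe sets, and 9.09% and 29.4% beside 2.73%, so the core share with SRC-1 siRNA, a single gene, was near that of all probe sets. Of the 7 other members, 2 (28.6%) were called for estradiol with each siRNA, a share like that of the inducible members. Core medians were 0.05 and 0.04 log2 and inducible medians 0.06 and 0.07. Inducible members spread from -0.47 to 1.02 and from -0.42 to 0.85. For SRC-1 siRNA 2 of 11 core and 2 of 17 inducible members were called under estradiol, and 1 of 11 and 2 of 17 under vehicle, that is 18.2% and 11.8% beside 1.8% of all probe sets, and 9.09% and 11.8% beside 1.21%. Medians under estradiol were -0.01 log2 for core and -0.13 for inducible members, and under vehicle 0.00 and -0.02. The classes are not sharp, since NFKB1, NFKB2, REL and RELB are themselves known targets of NF-kB.

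**Figure D4:**
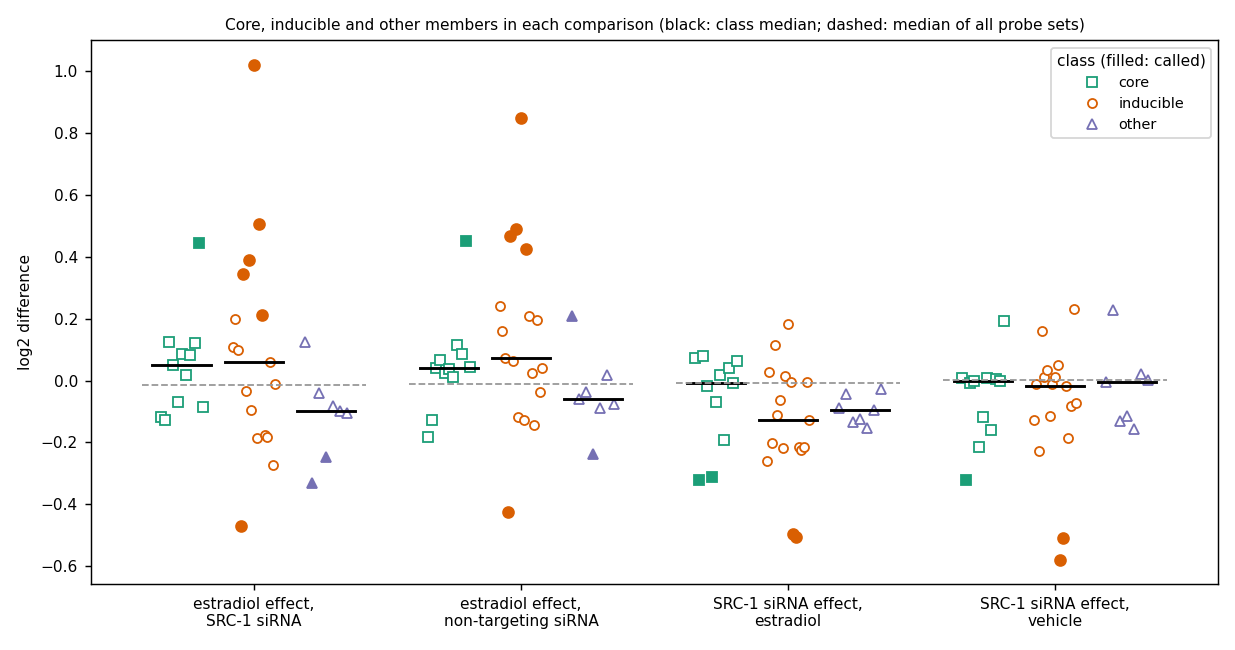
Log2 difference (vertical axis) of core, inducible and other members in each of the 4 comparisons between groups. Each symbol is a gene, filled symbols were called, black bars are class medians and dashed lines the median of all probe sets. Inducible members span the widest range for estradiol, from -0.47 to 1.02 with SRC-1 siRNA, around medians close to those of core members.

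The wider pathway was read from lists of other genes, which were also chosen with earlier results of these data known. Of 46 other components measured, 6 rose and 0 fell with estradiol with SRC-1 siRNA, and 4 rose and 0 fell with non-targeting siRNA, against the 4.49% and 1.85% called higher over all probe sets. BCL10, an adaptor of the CARD complexes that activate the IkB kinases, rose 1.41-fold and 1.53-fold (limma adjusted p = 0.000354 and 9.81e-05), and CARD10, its scaffold in non-immune cells, 1.28-fold and 1.23-fold (0.000575 and 0.00241). The deubiquitinase gene OTUD7B rose 1.26-fold and 1.27-fold (0.00511 and 0.00692), and TANK, a TRAF-binding adaptor, 1.31-fold and 1.26-fold (0.00946 and 0.0373). TLR4, the endotoxin receptor, rose 1.27-fold with SRC-1 siRNA (0.00711). With the covariate, tried after the data were seen, 0 of the 6 calls were left with SRC-1 siRNA and 2 of the 4 with non-targeting siRNA, BCL10 at 0.54 ± 0.07 log2 (limma adjusted p = 0.00617) and OTUD7B at 0.42 ± 0.07 (0.0233). TANK was at 0.06 ± 0.13 and 0.17 ± 0.08 log2 there. With SRC-1 siRNA against non-targeting siRNA, IL1RAP, the accessory chain of the interleukin-1 receptor, fell 1.28-fold under estradiol and 1.31-fold under vehicle (0.00314 and 0.00187), and CD40 fell 1.21-fold under vehicle (0.0245); they were the only called components, 1 of 46 (2.17%, near the 1.8% of all probe sets) and 2 of 46 (4.35%, beside 1.21%), and all stayed called with the covariate.

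Of 40 other NF-kB target genes, the cytokine, chemokine and survival genes among them, 8 rose and 6 fell with estradiol with SRC-1 siRNA, and 5 rose and 3 fell with non-targeting siRNA. The matching shares of all probe sets were 4.49% up and 2.39% down with SRC-1 siRNA, and 1.85% and 0.873% with non-targeting siRNA. IER3, an early-response survival gene, and LIF rose by 1.08 and 1.14 log2 with SRC-1 siRNA and by 0.99 and 1.11 with non-targeting siRNA, and PLAU, the urokinase gene, fell by 0.58 and 0.43. The complement gene C3 rose by 2.73 and 3.04 log2 (limma adjusted p = 8.13e-08 and 4.43e-08), the largest differences of the list, and PTGS2, the inducible cyclooxygenase, by 0.74 and 1.07. With the covariate 3 of the 14 calls were left with SRC-1 siRNA (C3, IER3 and LIF). With non-targeting siRNA 5 of the 8 were left (C3, IER3, LIF, PTGS2 and IL6). IL6 was called lower with estradiol with either siRNA, at -0.35 and -0.65 log2. With the covariate it was at -0.51 ± 0.18 and -0.72 ± 0.11 (limma adjusted p = 0.409 and 0.0122). PLAU lost both estradiol calls with the covariate (limma adjusted p = 0.286 and 0.055). With SRC-1 siRNA 6 of the 40 were lower and 0 higher under estradiol, and 8 were lower and 0 higher under vehicle, beside 1.07% and 0.945% of all probe sets called lower and 0.732% and 0.265% called higher. With the covariate 5 of the 6 and 7 of the 8 stayed called. BCL2A1, a survival gene of the BCL2 family, fell 2.57-fold and 1.75-fold, the chemokine gene CCL20 2.33-fold and 1.89-fold, IL1A 1.99-fold and 1.93-fold, and PLAU 1.76-fold and 1.58-fold. List medians were -0.12 log2 under estradiol and -0.10 under vehicle, beside -0.01 and 0.00 for all probe sets, and the arrays' mean over the list ranged from 7.261 to 7.342 with SRC-1 siRNA and 7.533 to 7.606 with non-targeting siRNA under estradiol, and from 7.195 to 7.243 and 7.397 to 7.428 under vehicle. Of 19 interferon-stimulated genes, which foreign RNA can switch on, 0 were called for SRC-1 siRNA under either treatment. Of all probe sets 1.8% were called there under estradiol and 1.21% under vehicle, so 0 of 19 was near these shares. All groups were transfected, so a response shared by both siRNAs would not show in that comparison. With estradiol 1 was called, IFI44L, lower by 0.34 log2 with SRC-1 siRNA. That is 5.26% of the list, near the 6.88% of all probe sets, and with non-targeting siRNA 0 were called, beside 2.73%.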

How the data were processed

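Total RNA of the U2OS-ERα cells was hybridised to Affymetrix Human Gene 1.0 ST arrays. Per the submitters' processing notes the authors used affy and limma; the method of background correction and normalization is not given in the sources used here. The values are log2 expression, deposited by the authors for 33297 probe sets, normalized to close array medians. The 4203 probe sets with IDs before the first one annotated with a gene were taken as controls, an inference from the IDs, and left out. R 4.3.3 and limma 3.58.1 then fitted 1 mean per group over all 12 arrays and 29094 probe sets (lmFit, eBayes, two-sided). Calls needed a p under 0.01 that also lay under 0.05 after Benjamini-Hochberg adjustment, the threshold in the submitters' design text. The fit was also run on simulated data with independent noise on each array. These held no shift of the control probe sets and no correlation of replicates, so they do not bear on calls that depend on either. The number of arrays limits the precision, with a median SE of 0.0711 log2 for a difference. Values on every array are given for members called in any comparison and for RELA, NFKB1 and NFKBIA. Up to 4 called genes by p were named from each other list in each comparison, with IL6 added for its covariate fit. The members and lists were chosen with earlier results of these data known. Alternatives were the replicate block, the arrays in the fit, a filter on dim probe sets, scaling, the variance model, array weights, control probe sets in the fit or as a covariate, other thresholds and leaving out each array.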

Additional observations from a re-analysis of the deposited data

Results flagged for a closer look

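The probe sets taken as controls were in no comparison above, and they moved with estradiol. With SRC-1 siRNA the median of the 4203 differences was 0.147 log2, and with all probe sets in the fit 384 were called higher and 7 lower. With non-targeting siRNA the median was 0.0654 log2, and 45 were called higher and 3 lower. With their mean as a covariate 1 of 9 members stayed called with SRC-1 siRNA and 5 of 8 with non-targeting siRNA. The differences of TNIP1, BCL3 and NFKBIZ with SRC-1 siRNA were 0.52 ± 0.13, 0.51 ± 0.13 and -0.51 ± 0.13 log2 with the covariate, against 0.39 ± 0.06, 0.34 ± 0.06 and -0.47 ± 0.06 without it. Among the members called there, that of ICAM1 was also larger in size with the covariate. Those of CSF1, IL24, MAP3K14, BIRC2 and TNFRSF1B were smaller, most of all that of TNFRSF1B. The lost calls do not measure what part the controls' shift has in these results.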

How the results depend on the processing

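No call of a member reversed under any setting. With the replicate block 9 and 8 members were called for estradiol (SRC-1 and non-targeting siRNA) and 4 and 3 for SRC-1 siRNA (estradiol and vehicle), and 2308, 807, 520 and 327 of all probe sets; it ended the ICAM1 call for estradiol with SRC-1 siRNA (limma adjusted p = 0.0527) and called NFKBIA there (0.03). Arrays of the same number correlated with r between -0.035 and 0.209 in 18 pairs, over 0.1 in 6, and 10 of 12 arrays correlated best with their own number, a hint from the data and not the design. With the control mean as a covariate the members called fell to 1 and 5 for estradiol and 1 for SRC-1 siRNA under estradiol, and all probe sets to 106, 366 and 121. With only the compared arrays 2 members were called for SRC-1 siRNA under estradiol, and 958 probe sets for estradiol with SRC-1 siRNA and 174 and 90 for SRC-1 siRNA. Leaving out the lowest 40% gave 1117 and 728 probe sets for SRC-1 siRNA and the trended variance 1246 and 857, and 2 for the difference of the estradiol effects. At an adjusted p under 0.01 the counts were 801, 422, 167 and 145 probe sets, with 2 members for SRC-1 siRNA under estradiol. At a fold of at least 1.5 they were 302, 165, 63 and 41 probe sets and 1, 1, 0 and 0 members. Leaving out 1 array at a time gave 7 to 10 and 7 to 8 members for estradiol, 2 to 4 and 2 to 3 for SRC-1 siRNA and 0 for the difference, and 1042 to 2956, 531 to 783, 216 to 547, 169 to 338 and 0 probe sets. The 2 members for SRC-1 siRNA under estradiol came without estradiol replicate 2 with non-targeting siRNA. Quantile normalization of all probe sets, chosen after seeing the data, put the share of estradiol calls that were higher at 48.3% with SRC-1 siRNA and 60.5% with non-targeting siRNA; that of the tested probe sets alone put it at 62.5% and 64.7%, and the deposited values at 65.3% and 68%. The cause of these changes was not tested.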
